A study of Mus musculus with 6 samples.

Results

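The genes described here are 34 of the 21959 genes in the count table, all on the proximal part of mouse chromosome 5. They lie around Abcb1a and Abcb1b, which encode P-glycoprotein, the pump that exports paclitaxel (PTX) and other drugs from cells. The list was chosen by position, as genes of the first 20 Mb of the chromosome, after earlier results of these same libraries had shown this stretch to be higher in the resistant line. The differences between the lines therefore describe the list and support nothing about it. The Abcb genes, Cdk6, Cyp51, Fzd1, Adam22, Cldn12 and Cd36 of the same stretch were left out of the list. Of the 34 members, 31 start within the first 20 Mb of GRCm38, and 3 listed members (Phtf2, Rsbn1l and Ptpn12) start just past that limit.

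MTC is a mouse gastric adenocarcinoma line, and MTC-R is its PTX-resistant derivative, raised over more than 30 cycles of PTX. The labels call them MPC and MPC-PTX and give both the genotype CDH1-/-;Trp53-/-. MTC came from stomach organoids of a C57BL/6J mouse with floxed Trp53 and Cdh1 and the tamoxifen-inducible Mist1-CreER driver, passed as a tumour through a BALB/c nude mouse. Each line was grown from a single selected clone, so a difference between the lines is also a difference between 2 clones. RNA was sequenced as 3 libraries per line, with the same batch number for all 6. Whether replicates came from separate cultures is not stated in the labels, so the tests measure the spread between these libraries, which may be technical. Cells of each line were grown in RPMI 1640 medium with serum.

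Genes that neighbour each other on a chromosome need not share a function, and those of this stretch do not. It holds secreted guidance factors (the class 3 semaphorins), Steap genes (mostly of metal reductases), mitochondrial proteins, a replication kinase subunit (Dbf4), scaffolds and neuronal genes. As background, extra copies of the DNA around the P-glycoprotein genes have been described in cell lines selected with drugs that this pump exports, and genes such as Sri, Dbf4, Rundc3b, Slc25a40 and Crot lie in that segment. Counts of RNA do not measure DNA copies, and the number of DNA copies in these lines was not tested here.

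The 6 libraries held between 16574580 and 23148182 counts. MTC replicate 3 stood apart from the other MTC libraries. Across 9888 genes of 1 comparison, which share their libraries and are not replicates, its log2 ratio to MTC replicate 1 correlated at -0.60 (Spearman's rho) with GC content and at 0.54 with transcript length. The members moved with it, with a median 0.52 higher on the log2 scale in that library than in the mean of the other MTC libraries, against -0.003 for all genes tested. After a correction for GC content and length the members' median was 0.263, against 0.068 for all genes. Results are therefore also given without that library where this changes a call or moves a fold by over 1.5 times. Cdh1, with a log2 fold change of -0.01, and Trp53, with 0.38, were not called different. The 7 epithelial markers, keratins among them, summed to 9400 to 10900 CPM in MTC and 5680 to 5870 CPM in MTC-R. The 7 gastric markers summed to 322 to 460 CPM in MTC and 1.58 to 2.26 CPM in MTC-R, almost all of it from Ctse and Anxa10. Tff1 and Tff2 were at 0 in every library, and Muc5ac, Gkn1 and Muc6 had at most 2 counts in any library. Fibroblast markers summed to 8.63 to 10.9 CPM, leukocyte markers to 9.33 to 12.5 CPM and endothelial markers to 2.21 to 3.08 CPM over the 6 libraries. Their part in the values of the members was not tested.

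The members together were higher in MTC-R in every library. Their share of all counts was 0.287%, 0.295% and 0.374% for the MTC libraries, against 0.676%, 0.697% and 0.713% for MTC-R. The lines did not overlap in this share. In CPM, which set each count against the TMM-scaled size of its library, the members summed to 2946, 2961 and 3778 for MTC, against 6683, 6888 and 7016 for MTC-R. Bulk libraries do not separate more cells that express a gene from more RNA per cell.

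Of the 34 members, 32 had enough counts to be tested, and 30 of these had a positive log2 fold change (MTC-R minus MTC). A gene was called when edgeR's quasi-likelihood F test gave it a p below 0.05 after Benjamini-Hochberg adjustment over 11795 genes. On this rule 25 members were called higher, beside 14.1% of all tested genes, and 1 member, Cdk14, was called lower, beside 15.6%. By the study's rule, an unadjusted p below 0.05 with a log2 fold change above 1, 15 members were higher, beside 3.77% of all tested genes. All MTC-R libraries exceeded all MTC libraries for 27 members, beside 24.2% of tested genes, and lay below them for 1 member, beside 22.7%. The list was picked from this contrast, so nothing is read from these counts. The tested members had a median log2 fold change of 0.99 (quartiles 0.84 and 1.49), and that of all tested genes was 0.04. Without MTC replicate 3 the members' median was 1.21, and 28 were called higher, beside 3020 of 11896 tested genes. In the main fit that number was 1668 of 11795, so calls rose over all genes as well. The 3 members with a log2 fold change above 2 were Elapor2, Sema3a and Sema3d, while 14 lay between 0.5 and 1.

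**Figure D1:**
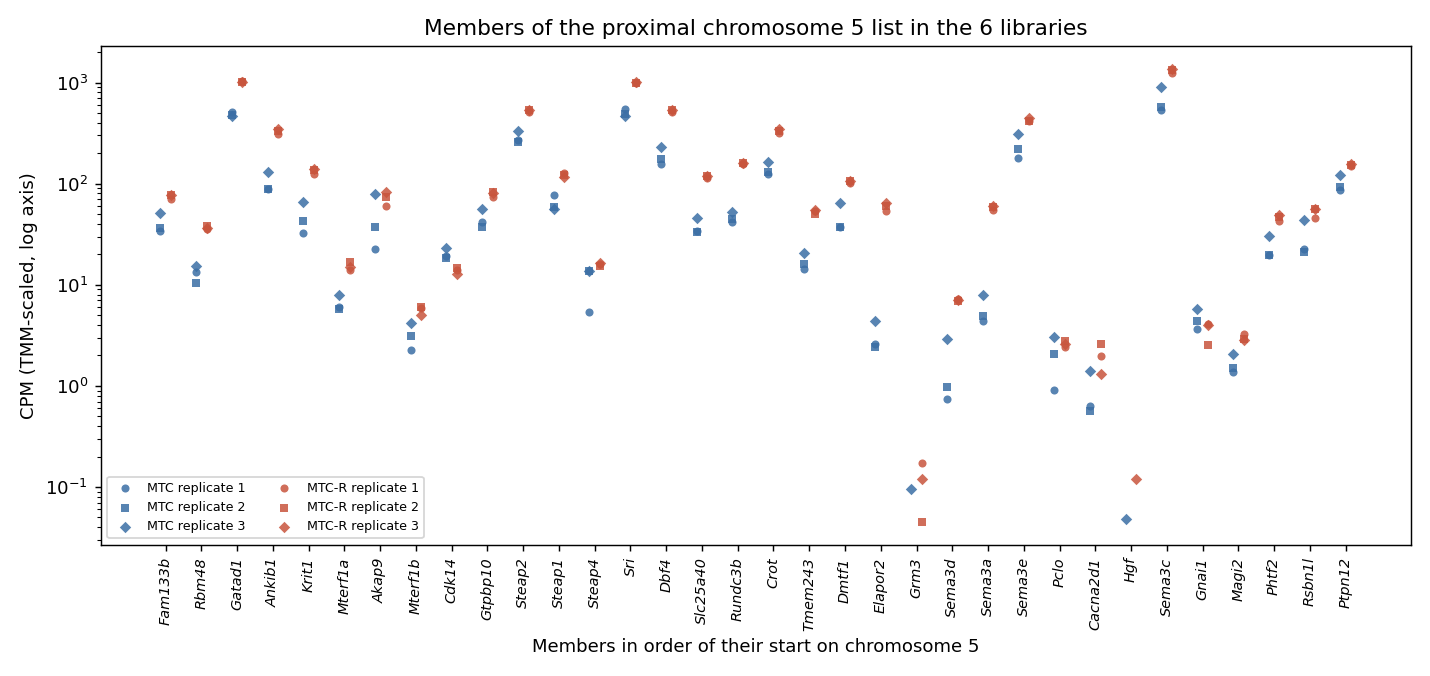
CPM of each member in each library on a log axis, in order of gene start along chromosome 5; blue is MTC, red is MTC-R, and a library without counts is not drawn. The red points lie above the blue ones for 27 members and below them for Cdk14, and MTC replicate 3 (blue diamonds) is often the highest of the MTC libraries.

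Among members with at least 5 CPM, Elapor2 had the largest log2 fold change and Cdk14 the smallest. Elapor2 (chromosome 5, 9266118 to 9481825) encodes a membrane protein of endosomes and lysosomes. It was at 2.60, 2.42 and 4.42 CPM in the MTC libraries and 54.3, 59.7 and 63.8 CPM in the MTC-R libraries. All MTC-R libraries were far above the MTC libraries, with a fold of 18.7 (95% interval 13.9 to 25.1). The log2 fold change was 4.22 (SE 0.22), where SE is the standard error of the fit. The 95% intervals of folds given here are approximate. They take the SE with a normal quantile, which is too narrow for 3 libraries per line. Cdk14 (chromosome 5, 4803391 to 5420312) encodes a kinase activated by cyclin Y at the membrane. It was at 19.2, 18.4 and 23.0 CPM in the MTC libraries and 14.0, 14.6 and 12.8 CPM in the MTC-R libraries, with no overlap between the lines. Its log2 fold change was -0.55 (SE 0.12), and it was not called lower when either MTC-R replicate 1 or MTC-R replicate 3 was left out, with log2 fold changes of -0.56 and -0.50. The tested genes on either side of Cdk14, which are not on the list, had positive log2 fold changes of 0.47 (Fzd1) and 0.59 (Cldn12), and the nearest listed members, Mterf1b and Gtpbp10, of 0.81 each.

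The sequences before the starts of these 2 genes are shown because they are the extremes of a stretch in which most members were higher. Each is the 250 bases before a RefSeq transcript start on GRCm38.p6, 5′ to 3′ on the gene's strand, with capitals for the GC box (GGGCGG on either strand, so CCGCCC when it is on the other strand). The Elapor2 window (chr5:9265868-9266117, plus strand) ends at the GENCODE gene start, and the Cdk14 window (chr5:5380252-5380501, minus strand) lies within the GENCODE gene, before a RefSeq start inside it.
Elapor2: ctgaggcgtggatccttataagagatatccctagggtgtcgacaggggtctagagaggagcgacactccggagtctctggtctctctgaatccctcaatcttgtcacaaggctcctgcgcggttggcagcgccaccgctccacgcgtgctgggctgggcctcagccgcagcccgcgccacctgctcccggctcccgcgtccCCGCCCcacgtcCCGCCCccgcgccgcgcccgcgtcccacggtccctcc
Cdk14: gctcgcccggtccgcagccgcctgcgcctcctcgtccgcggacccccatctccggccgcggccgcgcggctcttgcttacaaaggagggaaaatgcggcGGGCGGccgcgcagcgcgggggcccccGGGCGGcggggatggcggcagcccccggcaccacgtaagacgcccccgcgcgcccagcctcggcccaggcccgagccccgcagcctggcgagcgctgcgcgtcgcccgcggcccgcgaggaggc

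Both windows held 2 GC boxes, with 26 CpG pairs in the Elapor2 window and 43 in the Cdk14 window. RefSeq gave a window for 32 of the 34 members, 37 windows in all. The GC box was in 24 of these 37, against 32.7% of 32851 mouse windows of the same length. The CCAAT box (CCAAT) was in 9 of 37, against 33.8% of all windows, and the TATA box (TATAAA) in 2, against 12.4%. The E-box CACGTG was in 1 (Gnai1), against 6.0%, and the AP-1 motif TGANTCA in 1 (Sri), against 6.7%. Motifs were searched on both strands, matches of different motifs may share bases, and a match is a description and not a bound site. The median was 21 CpG pairs and 65.2% GC in the members' windows, against 6 and 52.4% in all windows.

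Among the tested members, the secreted factors Sema3a and Sema3d came next in size of difference. Sema3c lay near the members' median log2 fold change and Sema3e below it. Class 3 semaphorins are secreted guidance proteins that bind neuropilins and plexins on the receiving cell and steer axons and vessels. Sema3a (chromosome 5, 13125414 to 13602565) was at 4.41, 4.95 and 7.98 CPM in the MTC libraries and 55.4, 58.5 and 59.7 CPM in the MTC-R libraries. The lines were far apart, with a fold of 9.97 (95% interval 7.49 to 13.3) and a log2 fold change of 3.32 (SE 0.21). Sema3d (chromosome 5, 12383385 to 12588948) was lower in level, at 0.744, 0.980 and 2.88 CPM in MTC and 7.26, 6.94 and 7.01 CPM in MTC-R. MTC replicate 3 was the highest MTC library and still below every MTC-R library, and the log2 fold change was 2.18 (SE 0.42), against 2.97 without that library. Sema3e (chromosome 5, 14025276 to 14256689), whose protein binds plexin D1 directly, was at 179, 222 and 310.3 CPM in MTC and 420.2, 417 and 448 CPM in MTC-R, or 0.85 (SE 0.19) in log2 fold change. It was not called without MTC replicate 2 or without any 1 of the MTC-R libraries, with log2 fold changes of 0.81 to 0.87. Sema3c (chromosome 5, 17574281 to 17730268) had the highest CPM of the members, 534, 568 and 896 CPM in MTC and 1251, 1342 and 1375 CPM in MTC-R, and a log2 fold change of 0.99 (SE 0.20). The lines did not overlap for any of the 4 semaphorins. The transcripts of the 4 genes are 65.3% to 68.4% identical over the pairs aligned with Sema3a, with identical runs of at most 23 bases. For Hgf, the ligand of the receptor Met, the MTC libraries held 0, 0 and 1 counts and the MTC-R libraries 0, 0 and 2, too few to be tested.

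The semaphorin relatives outside the stretch, whose values the list's choice did not use, differed among themselves. Sema3b on chromosome 9 fell in MTC-R from 2.58 ± 0.484 CPM (SD, n = 3) to 0.653 ± 0.346 CPM (SD, n = 3), a log2 fold change of -2.01 with an SE of 0.39 (edgeR's adjusted p = 0.00861). Sema3g on chromosome 14 rose from 0.611 ± 0.324 CPM (SD, n = 3) to 1.43 ± 0.139 CPM (SD, n = 3), a log2 fold change of 1.23 with an SE of 0.36 (edgeR's adjusted p = 0.0392). The call of Sema3g was lost with DESeq2, with the replicate block (edgeR's adjusted p = 0.0506) and without any 1 library other than MTC replicate 2, where log2 fold changes were 0.98 to 1.28. Sema3f was lower as well (log2 fold change -0.69, SE 0.08). Of the semaphorin receptors, chosen for naming after their values were seen, Nrp2 rose (0.71, SE 0.06) and Plxnd1 fell (-0.63, SE 0.11), while Nrp1 was at -0.06 (SE 0.14).

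Of the 6 members with roles in metal, calcium and lipid handling, 4 were called higher, beside 14.1% of all tested genes. As the list was picked from this contrast, nothing is read from this or the other counts by role. Most Steap proteins reduce iron and copper at membranes. Steap2 (chromosome 5, 5664829 to 5694578) was at 273, 258 and 333 CPM in the MTC libraries and 512, 530.3 and 537 CPM in the MTC-R libraries, or 0.87 (SE 0.10) in log2 fold change. This was 0.44 after correction for GC content and transcript length, the largest drop of any member. Steap1 (chromosome 5, 5736317 to 5749326) was at 76.6, 58.4 and 56.0 CPM in MTC and 126, 121 and 118 CPM in MTC-R, and its log2 fold change was 0.93 (SE 0.12). Steap4 (chromosome 5, 7960457 to 7982213) was at 5.37, 13.7 and 13.7 CPM in MTC and 16.1, 15.5 and 16.4 CPM in MTC-R, without overlap, a log2 fold change of 0.55 (SE 0.32) that was not called. Only MTC replicate 1 of Steap4 was far below the other 5 libraries. Sri (chromosome 5, 8046078 to 8069379) encodes sorcin, a calcium-binding protein, and was at 552, 492 and 467 CPM in MTC and 992, 985 and 1004 CPM in MTC-R. These values are tight within each line, with a log2 fold change of 0.98 (SE 0.08). Crot (chromosome 5, 8966033 to 8997324), a peroxisomal enzyme that moves medium-chain fatty acids onto carnitine, was at 126, 132 and 165 CPM in MTC and 319, 329 and 344 CPM in MTC-R, with a log2 fold change of 1.23 (SE 0.11). Cacna2d1 (chromosome 5, 15934691 to 16374511), an auxiliary subunit of calcium channels, was at 0.638, 0.567 and 1.39 CPM in MTC and 1.97, 2.57 and 1.31 CPM in MTC-R. Its lines overlapped and its log2 fold change of 1.17 (SE 0.40) was not called, while without MTC replicate 3 it was 1.66 and was called.

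The 4 mitochondrial members were all called higher, beside 14.1% of all tested genes, and nothing is read from this count. Slc25a40 (chromosome 5, 8422850 to 8454797), a carrier of the inner mitochondrial membrane that imports glutathione, was at 34.4, 33.4 and 46.3 CPM in the MTC libraries and 115, 119 and 119 CPM in the MTC-R libraries, or 1.63 (SE 0.13) in log2 fold change. Gtpbp10 (chromosome 5, 5537454 to 5559538), a GTPase of mitochondrial ribosome assembly, was at 42.2, 37.3 and 56.0 CPM in MTC and 74.7, 81.9 and 81.5 CPM in MTC-R, or 0.81 (SE 0.15) in log2 fold change. The 2 copies of the mitochondrial transcription termination factor gene are close enough to share reads. Mterf1a (chromosome 5, 3890581 to 3893933) was at 6.06, 5.83 and 7.88 CPM in MTC and 14.0, 16.7 and 15.1 CPM in MTC-R, and its log2 fold change was 1.21 (SE 0.15). Mterf1b (chromosome 5, 4192367 to 4197651) was at 2.29, 3.15 and 4.23 CPM in MTC and 5.94, 5.996 and 4.99 CPM in MTC-R, and its log2 fold change was 0.81 (SE 0.23). Their transcripts were 98.6% identical over 1316 aligned bases, with a run of 424 identical bases, and how reads that fit both were counted is not given in the sources used here, so the split between them is uncertain. Mterf1b was not called without MTC replicate 2 or without any 1 of the MTC-R libraries, with log2 fold changes of 0.76 to 0.88.

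The windows before the 2 Mterf1 genes are shown because they are copies as well. They are the 250 bases before each start on GRCm38.p6, 5′ to 3′ on the gene's strand, for Mterf1a (chr5:3893934-3894183, minus strand) and Mterf1b (chr5:4192117-4192366, plus strand), with the GC boxes in capitals.
Mterf1a: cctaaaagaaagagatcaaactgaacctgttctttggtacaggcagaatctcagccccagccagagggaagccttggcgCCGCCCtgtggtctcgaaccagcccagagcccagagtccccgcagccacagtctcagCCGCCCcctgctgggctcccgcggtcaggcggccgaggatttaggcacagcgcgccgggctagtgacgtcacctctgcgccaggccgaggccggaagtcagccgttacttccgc
Mterf1b: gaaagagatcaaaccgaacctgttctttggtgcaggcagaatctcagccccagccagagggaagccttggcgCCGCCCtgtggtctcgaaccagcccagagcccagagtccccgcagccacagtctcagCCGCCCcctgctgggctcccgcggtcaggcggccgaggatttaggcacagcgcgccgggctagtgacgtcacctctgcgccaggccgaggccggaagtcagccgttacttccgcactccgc

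Over 243 aligned bases of these windows 241 were identical and 2 differed, with no gap. The relatives Mterf2, Mterf3 and Mterf4 on other chromosomes had log2 fold changes of -0.29, -0.05 and 0.02, none of them called.

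In the nucleus and RNA group, 5 of 6 members were called higher, beside 14.1% of all tested genes, and nothing is read from this count. Gatad1 (chromosome 5, 3632932 to 3657185), a chromatin protein found with the histone demethylase Kdm5a, was at 511, 480.1 and 465 CPM in the MTC libraries and 1035, 1011 and 1003 CPM in the MTC-R libraries. Its 3 values within each line were close, and the log2 fold change was 1.07 (SE 0.06). Rbm48 (chromosome 5, 3583978 to 3596585), an RNA-binding protein of the minor spliceosome, was at 13.3, 10.4 and 15.5 CPM in MTC and 35.3, 38.1 and 36.4 CPM in MTC-R, or 1.49 (SE 0.14) in log2 fold change. Its exons share 18.53% of their bases with genes on the opposite strand, and those of Gatad1 6.57%. Whether reads were counted by strand is not given in the sources used here, so reads of these partners cannot be told apart. Dmtf1 (chromosome 5, 9118801 to 9161776), a Myb-like transcription factor that binds D-type cyclins, was at 37.5, 37.2 and 64.7 CPM in MTC and 103, 107 and 107 CPM in MTC-R, or 1.18 (SE 0.22) in log2 fold change. Fam133b (chromosome 5, 3543833 to 3570238) was at 34.0, 36.4 and 51.8 CPM in MTC and 71.3, 76.8 and 77.5 CPM in MTC-R, or 0.88 (SE 0.16) in log2 fold change. Phtf2 (chromosome 5, 20758663 to 20882124) was at 19.8, 19.7 and 30.7 CPM in MTC and 42.6, 47.3 and 49.4 CPM in MTC-R, or 0.99 (SE 0.18) in log2 fold change. Rsbn1l (chromosome 5, 20893028 to 20956398) was at 22.7, 20.9 and 43.7 CPM in MTC and 45.5, 56.7 and 56.5 CPM in MTC-R. Its lines did not overlap, but its log2 fold change of 0.86 (SE 0.28) was not called. Without MTC replicate 3 it was 1.22 and was called, and DESeq2, the replicate block and the GC and length correction called it too.

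Among the scaffolds and ubiquitin genes, 4 of 5 were called higher, beside 14.1% of all tested genes, and nothing is read from this count. Rundc3b (chromosome 5, 8490334 to 8622952) was at 41.4, 44.7 and 52.8 CPM in the MTC libraries and 156, 159.9 and 159 CPM in the MTC-R libraries, or 1.77 (SE 0.10) in log2 fold change. Ankib1 (chromosome 5, 3690000 to 3802925), an E3 ubiquitin ligase, was at 88.4, 89.5 and 130.1 CPM in MTC and 307, 335 and 344 CPM in MTC-R, or 1.68 (SE 0.16) in log2 fold change. Krit1 (chromosome 5, 3803184 to 3845564), the junction scaffold mutated in cerebral cavernous malformation, was at 32.5, 43.1 and 65.7 CPM in MTC and 124, 136 and 139 CPM in MTC-R, a fold of 2.82 (95% interval 2.04 to 3.90). Of its complex partners elsewhere, Pdcd10 fell (log2 fold change -0.34, SE 0.11) and Ccm2 was at -0.02 (SE 0.10). The call of Pdcd10 was lost with library size alone and without MTC replicate 1 or any 1 of the MTC-R libraries, with log2 fold changes of -0.35 to -0.27. Akap9 (chromosome 5, 3928054 to 4081310), which anchors protein kinase A at the centrosome and Golgi, was at 22.6, 37.6 and 78.8 CPM in MTC and 60.5, 73.3 and 83.3 CPM in MTC-R. MTC replicate 3 lay among the MTC-R libraries, and the log2 fold change of 0.64 (SE 0.42) was not called, against 1.21 and a call without that library and 0.81 and a call with the replicate block. Magi2 (chromosome 5, 19227036 to 20704792), a scaffold of cell junctions, was at 1.38, 1.495 and 2.07 CPM in MTC and 3.25, 2.93 and 2.85 CPM in MTC-R, or 0.86 (SE 0.21) in log2 fold change. It was not called without MTC replicate 2 or without any 1 of the MTC-R libraries, with log2 fold changes of 0.80 to 0.90.

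Dbf4 (chromosome 5, 8396973 to 8422716) encodes the subunit that activates the Cdc7 kinase at origins of replication. It was at 158, 174 and 231 CPM in the MTC libraries and 509, 531 and 536 CPM in the MTC-R libraries, without overlap, and its log2 fold change was 1.49 (SE 0.14). Cdc7 itself, on chromosome 5 but past the stretch, rose, with a log2 fold change of 0.39 (SE 0.10). Its call was lost with the replicate block and without MTC replicate 2 or any 1 of the MTC-R libraries, with log2 fold changes of 0.36 to 0.42. Tmem243 (chromosome 5, 9100668 to 9160986), a small membrane protein, was at 14.2, 15.9 and 20.7 CPM in MTC and 54.1, 50.1 and 54.5 CPM in MTC-R, or 1.64 (SE 0.14) in log2 fold change. Its exons share 5.91% of their bases with Dmtf1 on the opposite strand. The signalling enzymes differed from each other. Ptpn12 (chromosome 5, 20986645 to 21055911), a tyrosine phosphatase that acts on Bcar1, was at 87.1, 92.2 and 122 CPM in MTC and 151, 151 and 155 CPM in MTC-R, or 0.60 (SE 0.13) in log2 fold change, and was not called without MTC replicate 2, with 0.54. Gnai1 (chromosome 5, 18265135 to 18360355), an inhibitory G protein subunit, was at 3.67, 4.43 and 5.72 CPM in MTC and 4.06, 2.53 and 4.04 CPM in MTC-R. Its lines overlapped and its log2 fold change of -0.39 (SE 0.25) was not called. The neuronal members were near the limit of detection. Pclo (chromosome 5, 14514918 to 14863459), a presynaptic scaffold, was at 0.903, 2.06 and 3.08 CPM in MTC and 2.44, 2.80 and 2.61 CPM in MTC-R, with overlapping lines and a log2 fold change of 0.36 (SE 0.38). For the glutamate receptor gene Grm3 the MTC libraries held 0, 0 and 2 counts and the MTC-R libraries 4, 1 and 2, also too few to be tested.

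**Figure D2:**
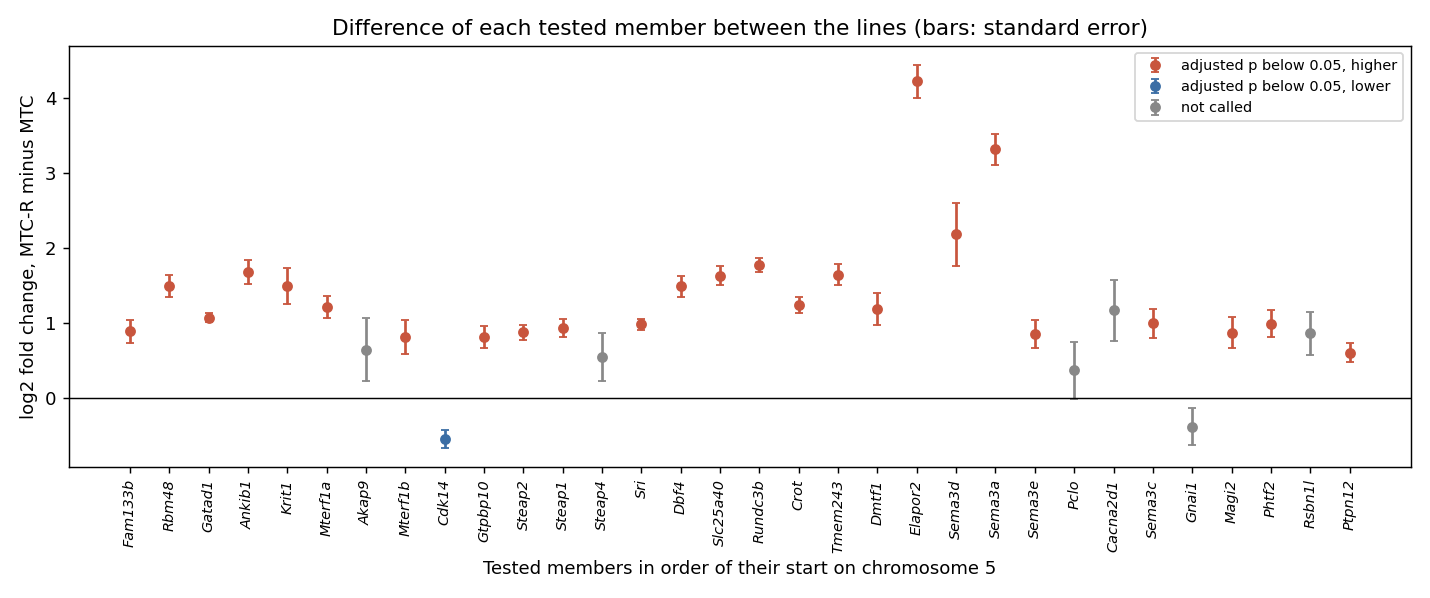
Log2 fold change (MTC-R minus MTC) of the 32 tested members with its standard error, in order of gene start; red points were called higher, blue lower and grey not called. Elapor2 (4.22) and Sema3a (3.32) stand above the rest, and Cdk14 (-0.55) and Gnai1 (-0.39) are the 2 members below 0.

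Levels can be set side by side only per length. Per kb of exon, the highest members were Gatad1, from 117 CPM per kb in MTC to 244 in MTC-R, and Sri, from 104 to 205. Sema3c (93.3 to 185) and Steap1 (46.2 to 88.2) followed. With the longest transcript as the length, Sri was ahead of Gatad1 in MTC (201 against 191 CPM per kb), and the 2 were close in MTC-R (397 against 399 CPM per kb). Elapor2 and Sema3a, at 0.398 and 0.417 CPM per kb in MTC, were among the lowest of the tested members there and reached 7.48 and 4.17 in MTC-R. Across the 32 tested members, which share the same libraries, Spearman's rho of the log2 fold change was 0 with the level per kb in MTC, -0.05 with transcript length and -0.22 with GC content.

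**Figure D3:**
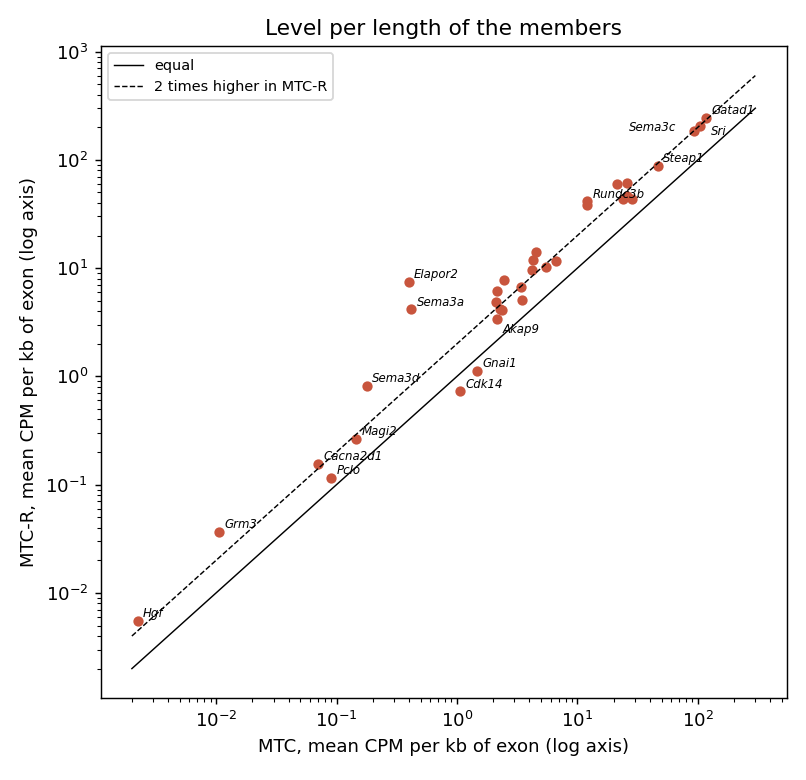
Mean CPM per kb of exon of each member in MTC-R against MTC, both on log axes; the solid line marks equal levels and the dashed line a level 2 times higher in MTC-R. Most members lie near the dashed line, Elapor2, Sema3a and Sema3d lie above it, and Cdk14 and Gnai1 lie below the solid line.

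Along the chromosome the difference was uneven. In stretches of 5 Mb, the median log2 fold change of all tested genes was 1.14 from 0 to 5 Mb, 1.36 from 5 to 10 Mb (the stretch with Abcb1a and Abcb1b), 1.52 from 10 to 15 Mb and 0.86 from 15 to 20 Mb. The last 2 of these medians rest on 4 and 5 tested genes, with values from 0.36 to 3.32 among the 4, and in a single stretch from 10 to 20 Mb the median was 0.86 over 9 genes. It was 0.60 from 20 to 25 Mb, 0.20 from 25 to 30 Mb and 0.09 from 30 to 35 Mb. In stretches of 2 Mb, the one from 8 to 10 Mb held 12 tested genes, 8 of them members, with a median of 1.71, and all 12 were called higher. Abcb1a and Abcb1b, which lie there, had log2 fold changes of 2.19 (SE 0.12) and 2.07 (SE 0.07). From 4 to 6 Mb the median was 0.77, and from 16 to 18 Mb and 18 to 20 Mb it was 0.54 and 0.24, over 2 tested genes each. Near the limit of 20 Mb the last members inside were Gnai1 at -0.39 and Magi2 at 0.86, and the first listed members outside were Phtf2 at 0.99 and Rsbn1l at 0.86. The 12 other tested genes of the first 20 Mb, not on the list, were all above 0 in log2 fold change (median 1.51). Of these, 9 were called higher, beside 14.1% of all tested genes. The 12 include the 9 genes left out of the list, Abcb1a and Abcb1b among them. They lie in the stretch already seen to be higher, so nothing is read from this count. Of 734 tested genes of chromosome 5 past 20 Mb that are not members, 141 were called higher and 88 lower, with a median of 0.10. Over all tested genes 14.1% were called higher and 15.6% lower.

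**Figure D4:**
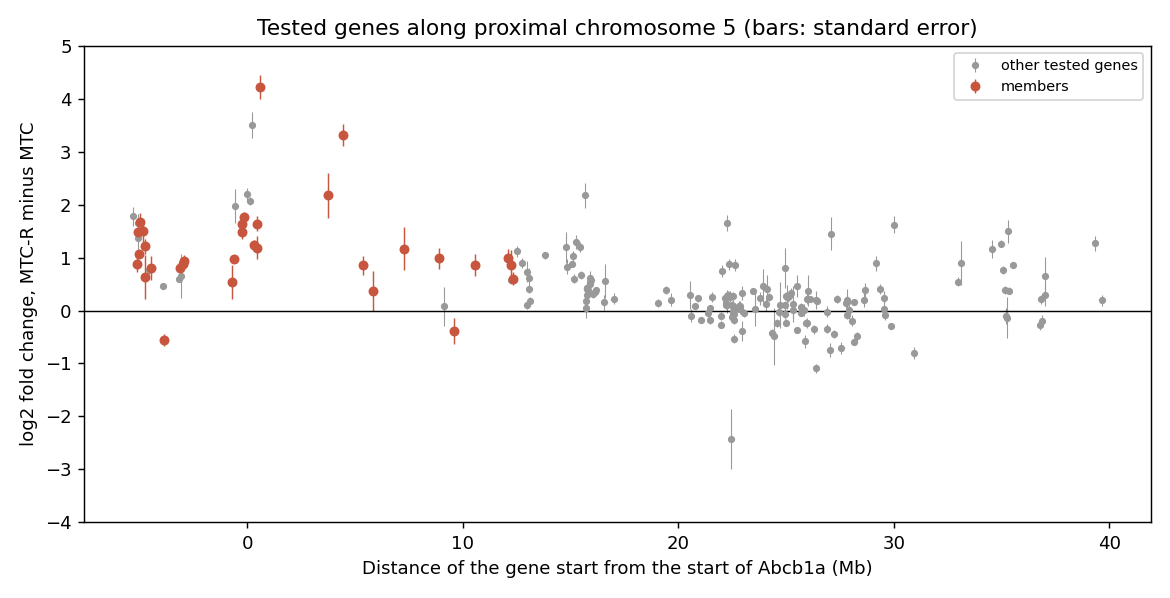
Log2 fold change (MTC-R minus MTC, with standard error) of the tested genes of proximal chromosome 5 against the distance of their start from that of Abcb1a in Mb; members are red and other genes grey, and 1 gene below the axis range is not drawn. Most genes from the left end to about 20.5 Mb past Abcb1a lie above 0, at smaller values past about 16 Mb, and most genes beyond scatter around 0.

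Relatives and partners of the members, listed from their known roles, were read from the same fit across all genes. Of 70 such genes outside the stretch, 63 were tested, 5 rose and 16 fell, beside 14.1% and 15.6% of all tested genes, and their median log2 fold change was -0.03. Sema3b, Sema3g and Hgfac were the 3 called genes with a change beyond 1 in size. Hgfac, a protease that activates Hgf, fell from 48.5 ± 1.58 CPM (SD, n = 3) to 22.8 ± 1.75 CPM (SD, n = 3), by -1.09 ± 0.09 (standard error) in log2 fold change (edgeR's adjusted p = 0.000181). Elapor1, the closest relative of Elapor2, fell in MTC-R from 34.7 ± 3.25 CPM (SD, n = 3) to 21.3 ± 1.35 CPM (SD, n = 3). Its log2 fold change was -0.70 ± 0.10 (standard error; edgeR's adjusted p = 0.00231), and it is named after its value was seen, as are Cdk18 and Magi1. Cdk18, a relative of Cdk14, fell with a log2 fold change of -0.46 (SE 0.07), and Magi1, a relative of Magi2, with -0.76 (SE 0.13). Without MTC replicate 3, 12 of the relatives and partners were called higher and 24 lower. Over all 11896 genes tested in that fit, 3020 were called higher and 3227 lower, so calls rose over all genes as well.

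**Figure D5:**
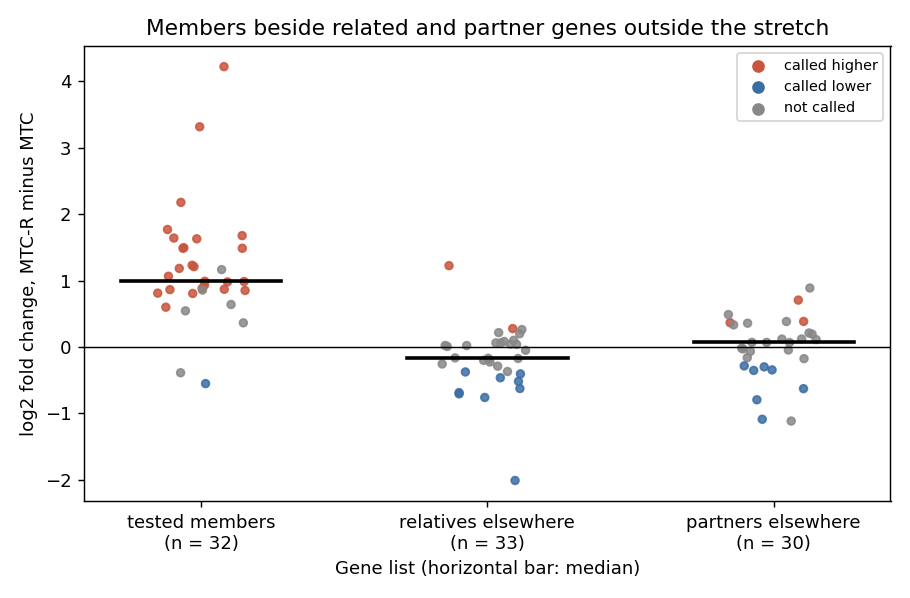
Log2 fold change (MTC-R minus MTC) of the 32 tested members, 33 tested relatives and 30 tested partners outside the stretch; each point is a gene, coloured by its call, and the bar is the median. The median is 0.99 for the members, -0.17 for the relatives and 0.07 for the partners.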

How the data were processed

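RNA of MTC and MTC-R cells was measured in 3 poly-A selected libraries per line. The authors filtered reads with fastp 0.22.0 (per the labels), mapped them with HISAT2 and deposited raw counts per gene, not normalized and not pooled. The genome release, annotation, counting tool and use of strand are not given in the sources used here. Totals were 16574580 to 23148182 counts per library. Without molecular identifiers, reads are not separate molecules, so precision is judged from the spread between libraries.

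The deposited counts were filtered with filterByExpr (minimum count 10), scaled with TMM and tested by robust glmQLFit and glmQLFTest in edgeR 4.0.16 (R 4.3.3) over 11795 genes with Benjamini-Hochberg adjustment. An exact test of 3 libraries against 3 cannot go below p = 0.1. Tested on simulated data (11701 genes, 200 of them shifted by 1.5 in log2), edgeR recovered 96% with 4% false calls and DESeq2 1.42.0 94.5% with 9.13%. The simulated counts had the same spread in both lines and no library shifted as MTC replicate 3 was. These rates may therefore not hold for the real libraries.

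Ensembl identifiers linked 11776 tested genes to GENCODE M21 (GRCm38) for position, length and GC content, and promoter windows are RefSeq's (GRCm38.p6). Pairs of transcripts and windows were aligned with Biopython 1.88. The members and gene lists were chosen with earlier results of these data known. Every member was accounted for, with values in all libraries at 1 CPM or more in either line. Of the relatives, those with an adjusted p below 0.05 and a change beyond 1 were named, and others only where said.

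Alternatives were DESeq2, its size factors or library size alone, other filters on low counts, a correction for GC content and length (loess, span 0.3), blocking on replicate number, leaving out each library, other call thresholds, another transcript length and other stretch widths.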

Additional observations from a re-analysis of the deposited data

How the results depend on the processing

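No member changed direction under any alternative. Of 416 values of single members under the alternatives, 393 kept their side of the threshold, 8 passed it newly and 15 no longer passed it. The members called higher numbered 21 to 28 with 1 library left out, 26 with DESeq2 and 27 with the replicate block. Over all genes DESeq2 called 1456 higher and the replicate block 1787, beside 1668 in the main fit. With a log2 fold change beyond 1 added to the adjusted p, 14 members were called higher, beside 417 of all tested genes. With it added to the unadjusted p, 15 were, beside 445, and no member was lower under either rule. The members called lower numbered 0 to 1 with 1 library left out. Among these fits, the 1 member called lower, Cdk14, lost its call only without MTC-R replicate 1 or MTC-R replicate 3. The members' median log2 fold change was 0.96 with DESeq2's size factors, 1.03 with library size alone, 1.02 with the replicate block and 0.91 to 1.21 with 1 library left out. Over all genes, the correction for GC content and length moved the number called higher from 1668 to 2771, and leaving out 1 library gave 803 to 3020 higher and 1077 to 3227 lower genes, the highest of both without MTC replicate 3. The number called higher was 934 without MTC replicate 2, and 803, 827 and 840 without MTC-R replicate 1, 2 and 3. Where members lost calls in these fits, calls thus fell over all genes as well. Of the relatives and partners, 3 were called higher with DESeq2. With at least 10 counts in every library 3 were called higher, beside 1256 of all genes. These numbers were 10 with the GC and length correction and 1 to 12 with 1 library left out. Other genes named in the text were run under the same alternatives after their values were seen, and 5 that were never called changed sign. With 1 library left out, Nrp1 was at -0.16 to 0.064, Mterf3 at -0.12 to 0.050, Mterf4 at -0.14 to 0.11 and Ccm2 at -0.15 to 0.091. After the GC and length correction Mterf3 was at 0.0033, Ccm2 at 0.070 and Cdh1 at 0.017. Mterf4 was at -0.0125 with DESeq2 or its size factors and at -0.011 with 10 counts in every library, and with library size alone Ccm2 was at 0.0225 and Cdh1 at 0.024. The cause of these shifts was not tested. Same-numbered libraries correlated at 0.151, -0.023 and 0.173 in their deviations from the line means, so the numbers were not taken to pair the libraries. Grm3 and Hgf had fewer than 10 counts in every library, so no difference was detectable at this depth.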

Other observations

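Farther along chromosome 5, the stretch from 40 to 45 Mb held 11 tested genes with a median log2 fold change of 0.77, and 8 were called higher and 0 lower in edgeR's test. The stretches beside it, from 35 to 40 Mb and from 45 to 50 Mb, had medians of 0.04 and 0.20. From 22 to 24 Mb, past the last member, 7 of 7 tested genes were called higher, with a median of 1.02. These stretches were picked after their values were seen. Over all tested genes 14.1% were called higher and 15.6% lower.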
